A study of Homo sapiens with 6 samples.

Results

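DLEU2, DLEU1, TRIM13 and KCNRG are neighbouring genes at 13q14, and these 4 of the 62700 genes in the deposited gene table were followed across 6 RNA-seq libraries. DLEU2 was selected on the shares of its transcripts, which differed in the RBMXL3 libraries from both kinds of control, so every RBMXL3 value of DLEU2 below is a description with no test. DLEU1, TRIM13 and KCNRG were taken as its neighbours. The cells were TCam-2, an established human seminoma (testicular germ cell tumour) line. One group (RBMXL3) was transduced with RBMXL3_FLAG to overexpress RBMXL3, an RNA-binding protein related to RBMX. The controls were cells transduced with GFP_FLAG (GFP) and non-transduced cells (WT), and each group had 2 libraries of polyA RNA made with a strand-specific kit. The labels do not say whether 2 libraries of a group came from separate cultures, so the p-values measure only the spread between these samples, which may be technical. They do not say either what promoter drove the transgenes or whether the cells were pools or clones.

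DLEU2 and DLEU1 are long non-coding RNA genes read in opposite directions from a shared start region, and DLEU2 carries the microRNAs miR-15a and miR-16-1 in an intron. The region is known for its loss in chronic lymphocytic leukaemia, where the microRNAs act as repressors of BCL2 and of cyclins. TRIM13 encodes a ubiquitin ligase of the endoplasmic reticulum membrane that takes part in degradation of misfolded proteins, and KCNRG encodes a soluble protein that interferes with assembly of Kv1 potassium channels.

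The targeted gene RBMXL3 had 84 and 68 reads in the RBMXL3 libraries and 0 in each of the 4 controls. The reads behind the gene table ranged from 17685680 to 29318007 a library. The summed level of 7 seminoma markers, among them POU5F1, NANOG and SOX17, was between 89892 and 106507 normalised reads (reads divided by the authors' size factor of each library). The leukocyte markers PTPRC and CD3E summed to at most 1.06, and 3 Sertoli cell markers summed to between 168 and 305. The 3 fibroblast markers summed to between 8301 and 13094. Most of that was COL1A2, at 8093 to 12709, while DCN was at most 1.69. The embryonal carcinoma markers SOX2 and DNMT3L summed to between 797 and 1460. Most of that was DNMT3L, at 765 to 1444, while SOX2 was at most 34.2. In bulk libraries such as these, fewer cells of a type and less RNA per cell cannot be told apart.

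2 DLEU2 transcripts carried nearly all of the gene's signal. DLEU2-206 and DLEU2-207 both start at chr13:50081978 on the minus strand (GRCh38, GENCODE 29) and share their first 3 exons, of 156, 95 and 67 bases, and the first 79 bases of exon 4. They part at the end of those 79 bases. DLEU2-207 is spliced there across an intron of 4815 bases (chr13:50044769-50049583) to a last exon of 1260 bases (chr13:50043509-50044768). DLEU2-206 is read on into that intron, and its exon 4, of 473 bases, ends at position 50049190. DLEU2-206 is 791 bases long, of which 394 are not in DLEU2-207, and DLEU2-207 is 1657 bases long. The 80 bases around the parting point (the minus strand, from GENCODE 29 transcripts) are shown because they tell the transcripts apart. Lower case is the end of the exon part that both hold, and capitals are the next 40 bases of each.
DLEU2-207 junction of exons 4 and 5: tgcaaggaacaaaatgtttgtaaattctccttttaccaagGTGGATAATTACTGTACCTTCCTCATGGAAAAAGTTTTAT
DLEU2-206 at the same place: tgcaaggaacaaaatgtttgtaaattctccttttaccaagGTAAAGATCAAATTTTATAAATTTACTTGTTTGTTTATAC

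The intron that DLEU2-207 removes holds both microRNA hairpins, MIR15A at chr13:50049119-50049201 and MIR16-1 at chr13:50048973-50049061, both on the minus strand. DLEU2-206 stops 12 bases inside the MIR15A hairpin, and 1 base lies between its annotated end and the first base of miR-15a-5p. The last 80 bases of DLEU2-206 (chr13:50049190-50049269) and the hairpin (RefSeq, GRCh38.p14) are shown for that overlap. Capitals mark the 12 hairpin bases in the transcript and the mature miR-15a-5p in the hairpin.
DLEU2-206 last 80 bases: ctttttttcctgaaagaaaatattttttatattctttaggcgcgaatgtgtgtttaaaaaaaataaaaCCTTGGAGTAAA
MIR15A hairpin: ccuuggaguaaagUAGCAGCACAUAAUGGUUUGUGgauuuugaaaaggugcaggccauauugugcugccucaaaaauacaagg
The mature miR-15a-5p (chr13:50049167-50049188) and miR-16-5p (chr13:50049027-50049048) share their seed, bases 2 to 8, given in capitals, and so share predicted targets.
hsa-miR-15a-5p: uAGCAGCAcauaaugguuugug
hsa-miR-16-5p: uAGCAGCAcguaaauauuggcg

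**Figure D1:**
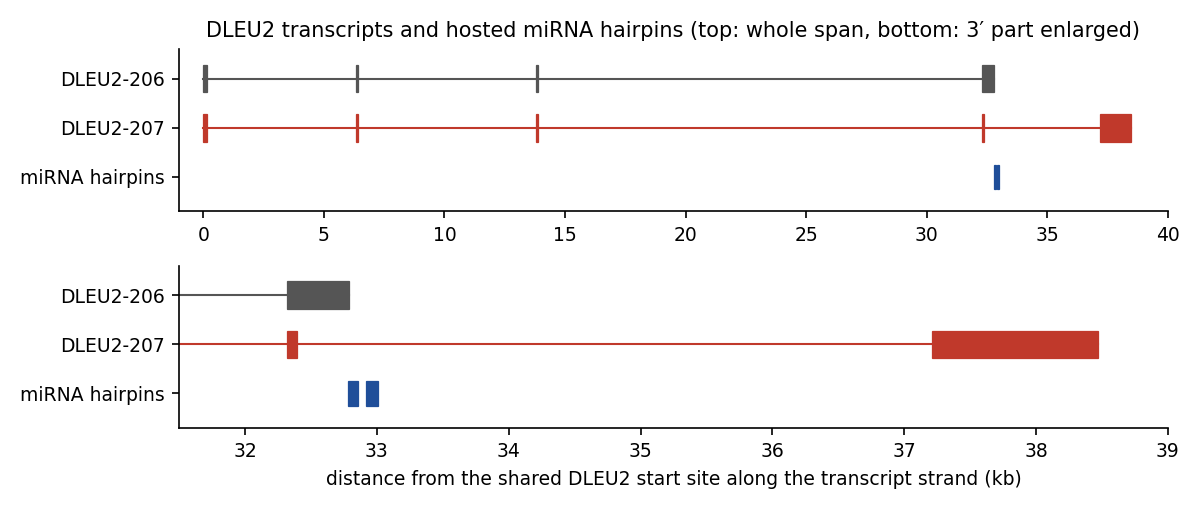
Exons (boxes) and introns (lines) of DLEU2-206 and DLEU2-207 and the positions of MIR15A (left) and MIR16-1 (right), by distance in kb from the start site that the transcripts share; the lower panel enlarges the 3′ part. The transcripts share 397 exon bases, DLEU2-206 ends 12 bases inside MIR15A, and both hairpins lie in the last intron of DLEU2-207.

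The transcript table gives salmon estimates in TPM (a level per transcript length, scaled to one total in every library). DLEU2-206 was at 16.2 and 13.3 TPM in WT and at 15.5 and 14.0 TPM in GFP, and it was listed at 0 in both RBMXL3 libraries. DLEU2-207 was at 1.88 and 2.43 TPM in WT, was listed at 0 in both GFP libraries, and was at 11.25 and 11.05 TPM in RBMXL3. So the transcript that is read on into the microRNA intron was the leading form in all 4 controls, and the form spliced across it was the leading one in both RBMXL3 libraries. Both RBMXL3 libraries were above all 4 controls for DLEU2-207, as they were for 21.4% of the 44693 transcripts tested, and below all 4 for DLEU2-206, as for 11.1%. These values chose the gene, and nothing is read from those shares.

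As a share of the DLEU2 TPM, DLEU2-206 held 87.6% and 84.6% in WT, 100% in each GFP library and 0% in each RBMXL3 library. DLEU2-207 held 10.1% and 15.4% in WT, 0% in GFP, and 100% and 97.7% in RBMXL3. An exact 0 in such a table can be an estimate that failed, and the depth behind a TPM is unknown. The rest was small: DLEU2-202, which ends directly before miR-15a-5p, had 0.418 TPM in WT replicate 1 alone, and DLEU2-205 had 0.261 TPM in RBMXL3 replicate 2 alone. The other 3 listed transcripts of DLEU2 were at 0 in every library.

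The choice of the gene set both controls against RBMXL3, so a comparison between the controls is not independent of it. Between the controls, DLEU2-206 differed by −0.0010 on the log2(TPM + 1) scale (GFP minus WT, SE 0.18, limma adjusted p = 1). DLEU2-207, seen in both WT libraries and in neither GFP library, differed by −1.65 (SE 0.22, limma adjusted p = 0.281). Its WT and GFP values do not overlap, but no transcript of the whole table passed the adjusted threshold of 0.05 in this comparison (0% of 44693; 3562 had an unadjusted p under 0.05 in limma). The difference in DLEU2-207 between the controls thus did not pass the adjusted test. Of the 8 transcripts of the members tested here, DLEU2-207 was the 1 with an unadjusted p under 0.05 in limma.

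**Figure D2:**
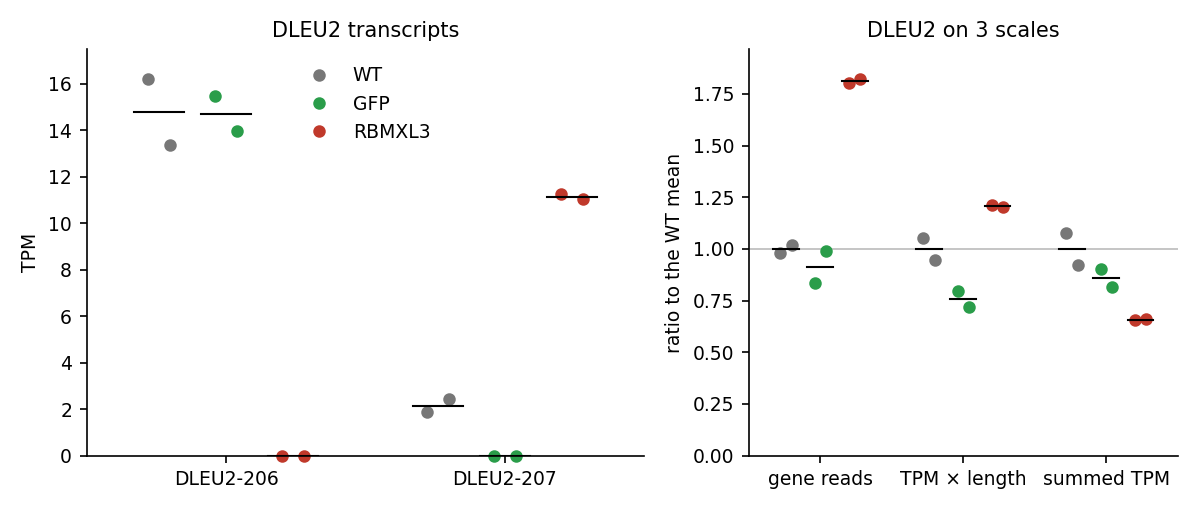
Left, TPM of DLEU2-206 and DLEU2-207 in each of the 6 libraries (points; lines are means of 2). Right, DLEU2 as a ratio to the WT mean on 3 scales: gene reads, TPM times transcript length, and summed TPM. DLEU2-206 is at 0 and DLEU2-207 above 11 TPM in both RBMXL3 libraries, and RBMXL3 is the highest group by gene reads and the lowest by summed TPM.

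At the level of the gene (ENSG00000231607.15, chr13:49982552-50125720, minus strand), DLEU2 had 123 and 128 normalised reads in the WT libraries. The GFP libraries had 104 and 124, and the RBMXL3 libraries had 225 and 228. The unnormalised reads were 145 and 152, 113 and 117, and 175 and 213. Both RBMXL3 libraries stood above all 4 controls, the lower of them at 1.77 times the highest control. The mean of WT was 125 ± 3.36, that of GFP 114 ± 13.8 and that of RBMXL3 227 ± 1.74 (SD, n = 2), so RBMXL3 was at 1.98 times GFP and 1.81 times WT. Of all genes tested, 22.5% had both RBMXL3 libraries above all controls. GFP and WT did not differ detectably (log2 difference −0.11, SE 0.14, limma adjusted p = 0.672).

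On the TPM scale RBMXL3 was the lowest group and not the highest, while WT stayed above GFP in the mean. Summed over the listed DLEU2 transcripts, WT had 18.5 and 15.8 TPM, GFP had 15.5 and 14.0 TPM, and RBMXL3 had 11.3 TPM in each library, below all 4 controls. The mean was 0.767 times that of GFP and 0.659 times that of WT. A read count grows with transcript length and TPM does not, and DLEU2-207 is longer than DLEU2-206. With each TPM multiplied by the annotated length in kb, WT came to 16.2 and 14.6, GFP to 12.23 and 11.04, and RBMXL3 to 18.6 and 18.5. RBMXL3 was again highest on that scale, at 1.60 times GFP and 1.21 times WT, both smaller than the ratios of the gene reads. Whether DLEU2 was higher or lower with RBMXL3 therefore depended on the table and on the length used.

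The exons of DLEU2 lie opposite other annotated entries, and reads counted without strand could not be told apart there. 6 entries annotated as miscellaneous RNA, RF02105 to RF02110, lie on the plus strand opposite DLEU2 exons. Of these, 5 lie opposite exons of DLEU2-206 or DLEU2-207. They cover 349 of the 397 bases that both transcripts share (87.9%), 120 of the 1260 bases found only in DLEU2-207 and 0 of the 394 found only in DLEU2-206. All 6 had 0 reads in every library. In order, 120, 90, 73, 57, 84 and 136 of their 120, 90, 73, 58, 84 and 136 bases are DLEU2 exon bases. They thus lie almost wholly inside DLEU2 exons, and whether any is transcribed as a gene of its own was not tested. TRIM13, also on the plus strand, shares 346 exon bases with DLEU2, or 6.78% of the DLEU2 exon bases and 4.28% of those of TRIM13. All of that overlap is outside DLEU2-206 and DLEU2-207. DLEU1 and KCNRG overlap the span of DLEU2 by 43550 and 5669 bases but share 0 exon bases with it.

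Opposite-strand signal differed between the groups in a selected set of genes. For 32 genes with at least 50% of their exon bases opposite 1 gene of at least 100 times their level, the reads were set against those of the opposite genes. They came to 0.468% and 0.390% in WT, 0.291% and 0.464% in the GFP libraries, and 0.0430% and 0.0369% with RBMXL3. Both RBMXL3 libraries were thus far below all 4 controls in this pooled measure. The filter on low values could be passed through the controls alone, and 1 gene could carry the sum. The set therefore cannot show how well strands were separated in a library. Whether the counting used strand in the same way in every library is not given in the sources used here, and the part of this difference in the DLEU2 gene reads was not tested.

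DLEU1 (ENSG00000176124.15, chr13:50082171-50723236, plus strand) starts 192 bases from the start of DLEU2-206 and DLEU2-207 and points away from them. The RefSeq promoter windows, each of 250 bases before to 50 after a start, overlap by 227 bases. The DLEU1 window (chr13:50081919-50082218, plus strand, GRCh38.p14) is shown because DLEU2 and DLEU1 share it. Capitals mark the bases that also lie in the DLEU2 window (chr13:50081992-50082291).
DLEU1 promoter window: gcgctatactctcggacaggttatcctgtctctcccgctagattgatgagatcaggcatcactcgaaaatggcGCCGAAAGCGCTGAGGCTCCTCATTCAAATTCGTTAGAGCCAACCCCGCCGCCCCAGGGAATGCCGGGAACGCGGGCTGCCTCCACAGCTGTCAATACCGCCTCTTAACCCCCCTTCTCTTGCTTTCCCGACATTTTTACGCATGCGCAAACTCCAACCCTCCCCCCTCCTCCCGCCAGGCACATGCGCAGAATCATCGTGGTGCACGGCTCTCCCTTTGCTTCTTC
The window was 57.7% G and C with 21 CpG sites, beside 58.7% and 23 for the DLEU2 window. The medians of all 35116 RefSeq promoter windows were 58.7% and 14. Searched on both strands, GGGCGG was found in both windows, as in 45.0% of all windows, and TATAAA and CACGTG in neither, against 11.5% and 7.26% of all. A second DLEU2 window, farther upstream (chr13:50125492-50125791, minus strand), was 64.0% G and C with 24 CpG sites and held all 3 motifs. The KCNRG window (chr13:50015194-50015493, plus strand) was 38.7% G and C with 1 CpG site and held none of the motifs.

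DLEU1 had 171 and 160 normalised reads in the WT libraries, 117 and 146 with GFP, and 161 and 151 with RBMXL3. One RBMXL3 library lay between the WT libraries and the other below them, and both GFP libraries were below the other 4. WT averaged 166 ± 7.63, GFP 132 ± 20.4 and RBMXL3 156 ± 7.18 (SD, n = 2). Against GFP, the log2 difference of RBMXL3 was 0.21 (SE 0.15, 95% interval −0.11 to 0.53, limma adjusted p = 0.330). Against WT it was −0.08 (interval −0.40 to 0.24, limma adjusted p = 0.727). GFP minus WT was −0.29 (interval −0.61 to 0.03, limma adjusted p = 0.267). None of these passed, and the interval for GFP minus WT allows a difference of up to −0.61.

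TRIM13 (ENSG00000204977.10, chr13:49995888-50020481, plus strand) was the most highly counted member. WT libraries had 510 and 596 normalised reads, GFP libraries 460 and 649, and RBMXL3 libraries 493 and 529. The 2 GFP libraries were the lowest and the highest of the 6, and all groups overlapped. WT averaged 553 ± 60.8, GFP 555 ± 134 and RBMXL3 511 ± 25.6 (SD, n = 2). The log2 difference was −0.09 for RBMXL3 minus GFP (interval −0.42 to 0.23, limma adjusted p = 0.698) and −0.10 for RBMXL3 minus WT (interval −0.43 to 0.22, limma adjusted p = 0.631). GFP minus WT was −0.01 (interval −0.34 to 0.32, limma adjusted p = 0.977).

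KCNRG (ENSG00000198553.9, chr13:50015254-50020922, plus strand) was near the limit of detection. WT libraries had 5 and 7 reads (4.23 and 5.87 normalised), GFP libraries 4 and 2 (3.70 and 2.12), and RBMXL3 libraries 3 and 4 (3.86 and 4.28). The limit that a count of 0 allows, 3 reads, came to between 2.52 and 3.86 normalised reads. KCNRG did not pass the filter on low values and was not tested. It also shares 1086 of its 1625 exon bases (66.8%) with TRIM13 on the same strand, so the split of reads between them is uncertain.

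Of the members that could be tested, limma called 0 of 2 in RBMXL3 against GFP, where 20.9% of all 14292 genes tested were called. It called 0 of 2 against WT, where 29.9% were, and 0 of 3 in GFP against WT, where 3.67% were. At an unadjusted p under 0.05 the count was 0 in each comparison, and edgeR and DESeq2 on the recovered reads called 0 as well. The nearest gene on the other side of the locus, SPRYD7, lay between 335 and 391 normalised reads in all 6 libraries and was not called either. DLEU7 (chr13:50711008-50843939, minus strand), whose span overlaps the far end of DLEU1 on the opposite strand, was between 1.68 and 5.15. MIR15A and MIR16-1 had 0 reads in every library, and polyA libraries of this kind do not capture mature microRNAs.

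**Figure D3:**
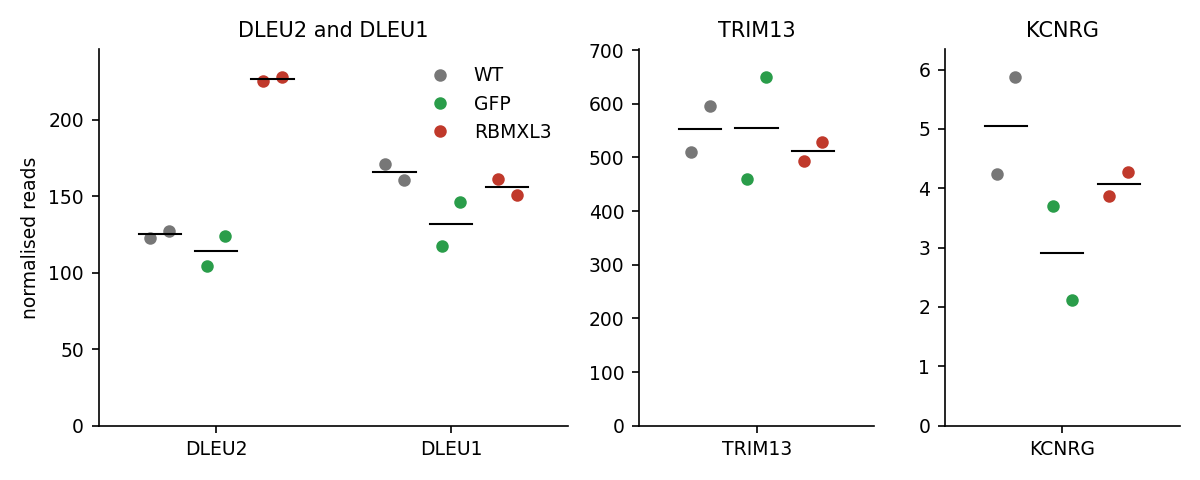
Normalised reads of the 4 members in each library (points; lines are means of 2), with a separate linear axis for TRIM13 and for KCNRG. DLEU2 is the one member whose RBMXL3 libraries, at 225 and 228, stand above all 4 controls.

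No transcript of DLEU1 or TRIM13 passed the test in any comparison. 51 transcripts of the 4 genes were listed and matched to GENCODE 29, of which 27 were above 0 in at least 1 library and 8 had at least 1 TPM in at least 2 libraries. For DLEU1 34 were listed, 18 of them at 0 throughout, and 13 were above 0 but under that limit, with a highest value of 1.02 TPM. DLEU1-212 was at 3.32 and 2.76 TPM with WT, at 1.80 and 2.05 TPM with GFP, and at 1.85 and 1.62 TPM with RBMXL3. Both WT libraries were above the other 4, but the log2(TPM + 1) differences of −0.46 for GFP minus WT (limma adjusted p = 0.666) and −0.56 for RBMXL3 minus WT (limma adjusted p = 0.279) did not pass.

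DLEU1-229 was between 2.31 and 3.21 TPM in 5 libraries and listed at 0 in RBMXL3 replicate 2. DLEU1-220 was listed at 0 in 4 libraries and was at 4.09 TPM in GFP replicate 2 and 1.92 TPM in RBMXL3 replicate 2. These presences and absences followed single libraries and not groups.

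TRIM13-206, the leading protein-coding form, had 12.0 and 13.3 TPM in the WT libraries, 10.6 and 16.3 TPM with GFP, and 12.7 and 14.4 TPM with RBMXL3. It held between 70.8% and 81.5% of the TRIM13 TPM in every library, so the leading form was the same in all groups. TRIM13-202 was between 1.81 and 2.92 TPM and TRIM13-204 between 0.335 and 1.22 TPM. Both WT libraries were above both GFP libraries for TRIM13-202 (log2 difference −0.35, limma adjusted p = 0.735), and the RBMXL3 libraries overlapped WT. TRIM13-208, a form with no coding annotation, reached at most 1.23 TPM and was under the limit. Of the transcripts of DLEU1 and TRIM13, limma called 0 of 6 in RBMXL3 against GFP, where 1.25% of all transcripts tested were called, and 0 of 6 against WT, where 1.53% were. None of the 6 had an unadjusted p under 0.05 in limma in either comparison, and no other tool was run on transcripts.

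KCNRG-202 was at 0.612 and 0.705 TPM in WT and at 0.579 and 0.576 TPM in RBMXL3, and listed at 0 in GFP. KCNRG-201 was at 0.771 and 0.575 TPM in GFP and at 0 in the other 4 libraries. The exchange follows the groups, but 2 to 7 reads lie behind the gene in each library, and both forms were under the limit for a test.

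**Figure D4:**
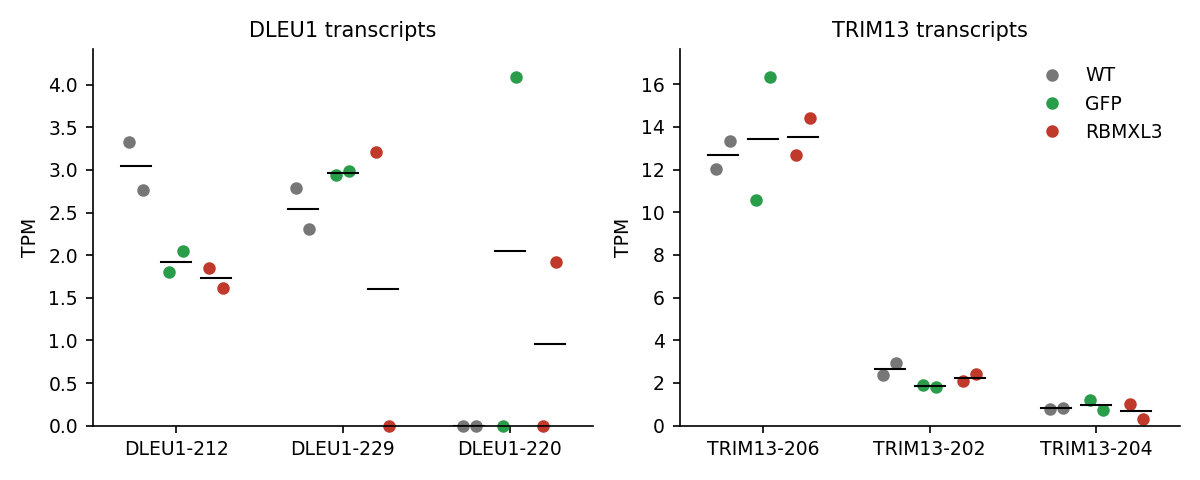
TPM of the DLEU1 and TRIM13 transcripts with at least 1 TPM in at least 2 libraries (points are libraries; lines are means of 2). TRIM13-206 leads in every library, while DLEU1-229 is at 0 in 1 RBMXL3 library and DLEU1-220 is above 0 in 2 libraries.

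The messenger RNAs that miR-15a and miR-16 are known to repress did not move in 1 direction. Of 17 listed targets, 16 were tested. In RBMXL3 against GFP 4 rose and 2 fell, where 10.5% of all genes tested rose and 10.4% fell, and the median log2 difference was −0.11, beside 0.00087 over all. Against WT 3 rose and 4 fell, where 14.6% of all rose and 15.3% fell, with a median of −0.21 beside −0.01. Of the 4 that rose against GFP, BMI1 and FGF2 turned sign in summed TPM (−0.42 and −0.0045). The call of FGF2 was also lost with a replicate block, without a filter and with quantile normalization (limma adjusted p = 0.0520, 0.130 and 0.0600). It was lost in DESeq2 too (DESeq2 adjusted p = 0.0620). With single libraries left out, the log2 difference of FGF2 ranged over 0.32 to 0.66. Its call was lost in each of those fits except the one without GFP replicate 2. In GFP against WT limma called 0 of 16, as did edgeR and DESeq2, with 3 at an unadjusted p under 0.05.

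VEGFA, the main growth factor of blood vessels, was at 261 ± 8.25 normalised reads with WT, 342 ± 22.8 with GFP and 649 ± 0.139 with RBMXL3 (SD, n = 2). It rose by 1.24 (log2) from WT and 0.88 from GFP (limma adjusted p = 3.52e-05 and 0.000692), and the call against GFP was lost in summed TPM (0.67, limma adjusted p = 0.0910). MYB, a transcription factor of proliferating cells, fell by 0.92 from WT and by 0.64 from GFP (limma adjusted p = 0.000773 and 0.00935). Its call against GFP was lost without a filter (limma adjusted p = 0.0639), where the calls of the list against GFP came to 3. It was also lost without RBMXL3 replicate 1 or 2, with log2 differences of −0.60 and −0.67. In summed TPM the calls of the list against GFP came to 1. The call of MYB against GFP was among those lost there (−0.37, limma adjusted p = 0.177). CCNE1, cyclin E1, fell by 0.59 in each comparison (limma adjusted p = 0.00176 from WT and 0.00286 from GFP). In summed TPM its call against GFP was lost (−0.32, limma adjusted p = 0.144). CCND1, cyclin D1, named after its values were seen, rose by 0.61 from WT and by 0.37 from GFP (limma adjusted p = 0.000958 and 0.0205). Its call against GFP was lost without a filter, without RBMXL3 replicate 1 or 2 and in summed TPM (limma adjusted p = 0.0601, 0.162, 0.221 and 0.0906). BCL2, the best-known target, averaged 37.1 ± 5.72 (WT), 25.9 ± 5.29 (GFP) and 23.6 ± 3.09 (RBMXL3) normalised reads (SD, n = 2), and was not called.

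BMI1, a Polycomb subunit, averaged 192 ± 35.7 (WT), 147 ± 67.3 (GFP) and 521 ± 21.1 (RBMXL3) normalised reads (SD, n = 2), with log2 differences of 1.34 and 1.73 from WT and GFP (limma adjusted p = 0.000911 and 0.000488). In summed TPM the sign was the opposite, −0.56 and −0.42 (limma adjusted p = 0.0960 and 0.196). Like DLEU2, it was higher in RBMXL3 by gene reads and lower by TPM, and neither direction is taken here as settled.

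Among 15 genes of endoplasmic reticulum degradation, the pathway of TRIM13, 14 were tested. In RBMXL3 against GFP 0 rose and 1 fell, where 10.5% of all genes tested rose and 10.4% fell. Against WT 0 rose and 2 fell, where 14.6% of all rose and 15.3% fell. The medians were 0.06 and −0.02, beside 0.00087 and −0.01 over all genes tested. UFD1, a partner of the VCP unfolding enzyme, fell by 0.48 from GFP and by 0.38 from WT (limma adjusted p = 0.00690 and 0.0155). In summed TPM both calls were lost, with log2 differences of −0.17 and −0.14 (limma adjusted p = 0.408 and 0.486). RNF145, a membrane ubiquitin ligase, fell by 0.37 from WT (limma adjusted p = 0.0127). Leaving out either RBMXL3 library brought the calls to 0 in each comparison, as did leaving out either WT library against WT. Without GFP replicates 1 and 2 the calls were 2 and 6 against GFP and 4 and 4 against WT. Of 8 Kv1 channel genes, the family that KCNRG acts on, 2 were tested, KCNA2 and KCNA6. Neither was called in RBMXL3 against either control by limma, edgeR or DESeq2, and 1 of them had an unadjusted p under 0.05 against GFP.

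Around the locus, 64 other annotated genes lie within 1 Mb, of which 62 were in the table and 16 were tested. In RBMXL3 against GFP 1 rose and 0 fell, where 20.9% of all genes tested were called, and the median log2 difference was −0.02. Against WT 1 rose and 2 fell, where 29.9% of all were called, with a median of −0.10. The one that rose against GFP was FNDC3A, by 0.29 (limma adjusted p = 0.0486), a call lost when any WT or RBMXL3 library was left out. It was also lost with a replicate block, without a filter and in summed TPM (limma adjusted p = 0.0862, 0.0734 and 0.235) and in DESeq2 (adjusted p = 0.0643). WDFY2 fell by 0.51 from WT (limma adjusted p = 0.00646), a call lost without WT replicate 1 or RBMXL3 replicate 2 and in summed TPM (−0.33, limma adjusted p = 0.223). The calls against WT ranged from 0 without either of those libraries to 6 without either GFP library, and were 1 without RBMXL3 replicate 1.

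The genes whose reads followed DLEU2 most closely over the 6 libraries, by Pearson correlation of log2 values among the 14292 genes tested, were SLC4A7 (r = 0.9995), MIR1244-2 (r = 0.999) and ETFRF1 (r = 0.996). SLC4A7, a bicarbonate transporter, averaged 505 ± 9.84 (WT), 466 ± 38.7 (GFP) and 856 ± 9.35 (RBMXL3) normalised reads (SD, n = 2). MIR1244-2, a microRNA gene with near-identical copies whose counts are uncertain, had between 1.85 and 19.1 normalised reads in the controls, and 254 and 260 with RBMXL3. All 6 points fall into 2 clusters, controls and RBMXL3, so these correlations describe little beyond that split. Among 111510 transcripts of other genes, the one whose library shares came closest to those of DLEU2-207 was SPAG1-201, whose share was 0% in both WT libraries, 9.71% and 12.5% in GFP, and 90.4% and 90.6% in RBMXL3. No library was more than 15.4 percentage points from DLEU2-207. CYCS-202 and PFDN4-202 followed, at most 16.3 and 24.9 points away. The shares of SPAG1-201 rest on a low level, as all SPAG1 transcripts came to between 2.67 and 4.55 TPM a library. Those of CYCS came to between 323 and 391 TPM and those of PFDN4 to between 158 and 329 TPM.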

How the data were processed

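The members and the gene lists were chosen with earlier results of these data known. RNA-seq libraries of 3 groups with 2 libraries each were compared. Trim Galore 0.6.10, STAR 2.7.11a, Salmon 1.10.2 and DESeq2 on GRCh38 are named per the submitters' processing notes; the annotation, the read counter and its strand setting are not given in the sources used here. The deposited gene table holds a normalised signal, reads of each gene divided by 1 size factor a library, although it is named CPM. Whole reads were recovered for 100% of 145320 values above 0 (within 0.01 read). The deposited transcript table holds salmon TPM.

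Gene values were divided by a common factor of 23.9, and limma 3.58.1 (R 4.3.3, intensity trend, two-sided, Benjamini-Hochberg, threshold 0.05) was run on log2(value + 1), for genes with at least 1 in at least 2 libraries, with 1 coefficient a group. Fold changes are on that scale, which understates low genes. TPM were treated likewise. edgeR 4.0.16 and DESeq2 1.42.0 on recovered reads were alternatives. The main limma fits of genes and of transcripts were tested on simulated data, and the alternatives were not. Of 251955 listed transcripts, 80.0% matched GENCODE 29 and held at least 94.7% of the TPM; 35 of the 51 members' transcripts had the same version number, and DLEU2-206 and DLEU2-207 did not, so their coordinates and lengths are those of the GENCODE 29 versions. Later transcripts are not used here. The overlap limits behind the strand measure were chosen after seeing the data. Floors of 3 reads cover counting error only. Named were the members, their transcripts that passed, the adjacent, overlapping and hosted genes, the largest changes in each list, and the 3 genes and 3 transcripts most alike. The main fits did not pair samples by replicate number, and the labels do not say whether such pairs exist. Sequences come from GENCODE 29 and RefSeq.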

Additional observations from a re-analysis of the deposited data

How the results depend on the processing

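Under every alternative run, no test of DLEU1 or TRIM13, nor of DLEU2 in GFP against WT, passed the threshold (lowest adjusted p 0.0692). DLEU2 in RBMXL3 against GFP and WT, 0.86 and 0.75 (log2), was 0.98 and 0.84 with a pseudocount of 0.1, 0.99 and 0.87 in edgeR, 1.00 and 0.87 in DESeq2, and −0.35 and −0.56 in summed TPM, where the medians of all genes were 0.13 and 0.03. Summed TPM also turned DLEU1 to −0.40 against GFP and, for GFP minus WT, to 0.12. TRIM13 for GFP minus WT was 0.0020 with quantile normalization, 0.010 in edgeR, 0.0095 in DESeq2 and 0.035 in summed TPM. BMI1 in summed TPM was −0.42 and −0.56 and FGF2 was −0.0045 against GFP. The cause was not tested.

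Genes called in RBMXL3 against GFP, 2986, were 950 without a filter and 988 in summed TPM; against WT, 4271 became 2327 and 1638; for GFP against WT, 524 became 0 without a filter (3951 at an unadjusted p under 0.05 in limma), 327 with quantile normalization and 0 in summed TPM (2213 unadjusted). The samples share only a replicate number (correlations of deviations of −0.16, 0.03 and −0.09). With a replicate block, genes called in GFP against WT came to 191, and transcripts called in RBMXL3 against GFP and WT, 557 and 685, to 69 and 69; no member's call changed. With the GFP numbers crossed, an alternative added after seeing the data, the GFP against WT count was 1049.

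Leaving out each library in turn gave 679 to 4304 genes against GFP (679 without RBMXL3 replicate 2, 844 without replicate 1), 1428 to 6155 against WT (1428 and 1627 without RBMXL3 replicates 2 and 1, 1538 and 2676 without WT replicates 1 and 2) and 0 to 2770 for GFP against WT. That last count was 0 and 6 without WT replicates 1 and 2 (1852 at an unadjusted p under 0.05 in limma where it was 0), 1139 and 2770 without GFP replicates 1 and 2, and 172 and 184 without RBMXL3 replicates 1 and 2. Transcripts ranged from 0 to 660 against GFP (0 without RBMXL3 replicate 1 or 2, with 4625 and 4539 at an unadjusted p under 0.05 in limma; 157 and 163 without WT replicates 1 and 2; 51 without GFP replicate 1). They ranged from 1 to 827 against WT (1 without either RBMXL3 replicate, 6 and 15 without WT replicates 1 and 2). DLEU2 ranged over 0.76 to 0.96 and 0.73 to 0.77. DLEU1 ranged over 0.08 to 0.35 against GFP, −0.12 to −0.04 against WT and −0.42 to −0.16 for GFP minus WT. TRIM13 ranged over −0.33 to 0.14, −0.21 to 0.0033 and −0.25 to 0.23. Shares in WT ranged over 84.6% to 87.6% for DLEU2-206 and 10.1% to 15.4% for DLEU2-207, whose RBMXL3 share ranged over 97.7% to 100%. Single transcripts turned sign in the same ranges: DLEU2-206 −0.13 to 0.13 for GFP minus WT; DLEU1-220 −1.58 to 0.37 against GFP; DLEU1-229 −1.99 to 0.085 against GFP and −1.82 to 0.25 against WT; TRIM13-204 −0.44 to 0.034 against GFP and −0.15 to 0.15 against WT; TRIM13-206 −0.26 to 0.33 against GFP and −0.24 to 0.34 for GFP minus WT. With 2 libraries a group, differences within those ranges cannot be resolved.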
